A study of Mus musculus with 12 samples.

Results

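Natural killer cells and innate lymphoid cells were selected on their transcripts from whole mammary gland preparations, so that the members were chosen by the measured UMI counts of the genes named here. A barcode was kept if it had no UMI of the T cell receptor complex genes Cd3d, Cd3e and Cd3g, at least 2 UMIs in all of Ncr1, Klrb1c, Gzma, Klre1, Il7r and Gata3, and at least 1 UMI of the leukocyte gene Ptprc. It also had fewer than 5 UMIs of the C1q genes, none of Cd79a or Pdgfra, and fewer than 20 of H2-Aa and H2-Ab1. Of 58620 barcodes in 12 libraries, 46257 passed the limits on genes, UMIs and mitochondrial reads, and 967 of these were members. Among them, 541 cells had Ncr1 or Klrb1c and are called the NK arm, and 317 cells had both Il7r and Gata3 and are called the ILC arm. A further 15 cells met both descriptions and 94 met neither.

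The libraries came from mammary glands of C57BL/6J mice aged 43 weeks, with 1 library per group, and the number of animals behind a library was not given in the sources used here. In 11 of the groups the ovarian follicles had been depleted with 4-vinylcyclohexene diepoxide (VCD, 160 mg/kg/day for 15 days), and the Intact group had not received VCD. Of those 11 groups, 9 form a layout of hormone by flame retardant. The hormone was none (VCD_Vehicle, VCD_Low_PBDE, VCD_High_PBDE), 17β-estradiol (VCD_E2, VCD_Low_E2, VCD_High_PBDE_E2; 1 µg per animal per day for 1 week) or E2 with progesterone (VCD_E2_P4, VCD_Low_E2_P4, VCD_High_PBDE_E2_P4; P4 at 1 mg per animal per day). Polybrominated diphenyl ethers (PBDE) were absent, low (PBDE-47 at 0.05 mg/kg/day in food for 20 weeks) or high (1 mg/kg/day for 1 week), so that dose and duration cannot be told apart. VCD_E2_ICI had E2 and 5 mg of the estrogen receptor degrader ICI per animal, and VCD_Vehicle_NormEnv was the vehicle group kept in housing with possible environmental PBDE from cage plastics. The lymph nodes had been removed before dissociation.

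NK cells kill infected or transformed cells by releasing granules that hold perforin and granzymes, and they are told from T cells by lacking a rearranged antigen receptor. Innate lymphoid cells of the ILC2 kind reside in tissues such as fat, depend on the transcription factor Gata3 and the interleukin-7 receptor, and answer alarm signals such as interleukin-33 with the cytokines Il5 and Il13. ILC1, marked by Tbx21, and ILC3, which make interleukin-17 and interleukin-22, are the other helper-like kinds. In the mammary gland these cells lie in the stroma and fat around the ducts.

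For 3 effector genes described below, the sequence in front of the start is shown. The 250 bases upstream of Il5 (chr11:53720544-53720793, plus strand), Il13 (chr11:53634703-53634952, minus strand) and Gzmb (chr14:56262335-56262584, minus strand) are given 5′ to 3′ from RefSeq on GRCm38.p6. Capitals mark a GATA motif (AGATAA or AGATAG on either strand) in Il5 and Il13, and a T-box core (TCACAC on either strand) in Gzmb.
Il5: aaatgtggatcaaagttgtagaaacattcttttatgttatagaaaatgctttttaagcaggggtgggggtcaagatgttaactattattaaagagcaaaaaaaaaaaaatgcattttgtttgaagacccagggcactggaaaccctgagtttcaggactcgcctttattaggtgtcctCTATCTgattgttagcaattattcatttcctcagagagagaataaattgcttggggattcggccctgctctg
Il13: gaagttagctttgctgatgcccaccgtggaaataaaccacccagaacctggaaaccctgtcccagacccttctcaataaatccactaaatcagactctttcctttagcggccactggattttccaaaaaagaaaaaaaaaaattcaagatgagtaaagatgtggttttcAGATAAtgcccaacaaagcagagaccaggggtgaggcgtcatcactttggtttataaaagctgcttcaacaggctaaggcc
Gzmb: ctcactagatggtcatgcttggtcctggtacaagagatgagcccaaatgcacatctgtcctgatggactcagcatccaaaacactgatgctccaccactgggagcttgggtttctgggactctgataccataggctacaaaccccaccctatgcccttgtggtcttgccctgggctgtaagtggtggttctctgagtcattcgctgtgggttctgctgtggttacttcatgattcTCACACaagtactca
The GATA letters began 72 bases before the start of Il5, on the opposite strand, and 81 bases before that of Il13. They stood in 16.5% of 32536 mouse windows of the same length. TCACAC stood 15 bases before the start of Gzmb and in 12.1% of the windows. Il13 (11:53631323-53634702) and Il5 (11:53720794-53725103) lie on chromosome 11 with 86091 bases between them, a stretch that holds Rad50. The window listed for Prf1 held neither motif and is not shown, because it did not meet the gene start in the annotation. These matches describe letters and were not set against any binding data.

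The libraries held 41737881 (VCD_High_PBDE_E2_P4) to 109224969 UMIs (VCD_Low_E2_P4), and 1996 to 7570 barcodes passed in each. The median member had 5896 UMIs, with 5557 in the NK arm and 6393 in the ILC arm. At the threshold, 20 members had exactly 2 UMIs of the 6 genes, and 56 barcodes with 1 UMI met every other condition. The lack of Cd3 was the condition that kept out most cells, since 1540 barcodes failed by it alone, and 47 of these had a single Cd3 UMI. Cell barcodes shared between libraries numbered at most 185 in a pair, all 11 pairs above 50 carried the same tag in their file names, and no shared barcode was a member in both libraries.

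The first result is that the arms held separate gene programmes, as the heat map of levels in the arms, T cells and fibroblasts shows. Since the rule used genes of the same cells, these levels are a description without a test, and each is given as CPM, the UMIs of a gene scaled by all UMIs of the summed cells. Of 2535 genes that averaged 50 CPM or more over the arms, 1639 were higher in the NK arm and 896 in the ILC arm, with a median log2 ratio of 0.28. The list of 22 NK receptor genes had 20 higher in the NK arm, with a median log2 ratio of 4.71. The list of 31 ILC2 genes had 29 higher in the ILC arm and a median of -3.66. For the 14 granule and killing genes, 11 were higher in the NK arm, with a median of 5.21.

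**Figure D1:**
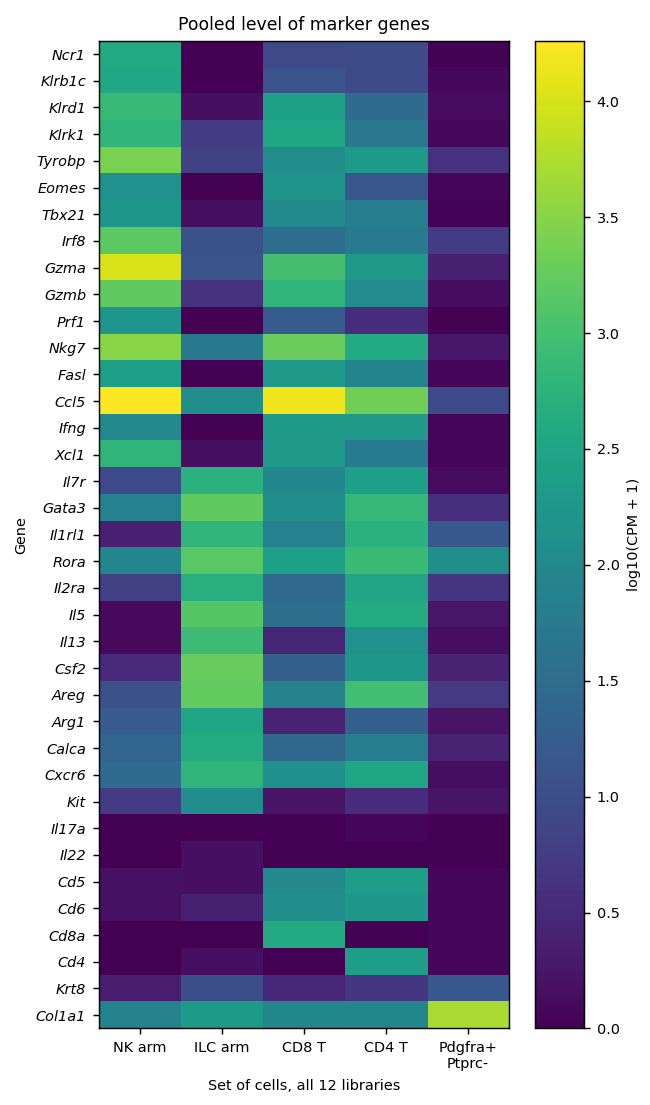
Levels, as log10(CPM + 1) in colour, of marker genes (vertical axis) in the summed cells of the NK arm, the ILC arm, CD8 T cells, CD4 T cells and Pdgfra+ Ptprc- fibroblasts (horizontal axis). Gzmb, Prf1 and Irf8 were high in the NK arm and Il5, Il13 and Csf2 in the ILC arm, where Gzmb stood at 3.29 CPM.

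The rule genes themselves were unevenly used within the NK arm. Klre1, a lectin-like receptor, had a UMI in 90.2% of cells, Ncr1, the activating receptor NKp46, in 85.6%, Gzma, a granzyme, in 82.4% and Klrb1c, the antigen NK1.1, in 81.3%. Both Ncr1 and Klrb1c were detected in 66.9% of the NK arm. Gata3 had a UMI in 32.3% of NK arm cells and Il7r in 3.14%. The 15 cells with Ncr1 or Klrb1c that held Il7r and Gata3 together were kept out of the NK arm, which lowers these shares. The rule also selected cells on UMIs of its own genes, which can raise shares such as those of Klre1 and Gzma. Of the ILC arm, 1.26% had a UMI of Gzma.

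The killing machinery was high in the NK arm of every library. Gzmb, which encodes granzyme B, stood at 954 CPM in the lowest library (VCD_Low_PBDE), 1677 at the median and 2310 in the highest (VCD_High_PBDE_E2). Its level was 3.29 CPM in the ILC arm, 607 in CD8 T cells and 115 in CD4 T cells, and it was higher in the NK arm than in the ILC arm in 10 of the 10 libraries with at least 10 cells in each. A Gzmb UMI was found in 83.4% of NK arm cells, or 76.8% once every cell was thinned to 3000 UMIs, against 0.946% of the ILC arm and 0.647% of fibroblasts. Prf1, the pore-forming perforin, ranged from 83.3 CPM (VCD_High_PBDE) to 219 (VCD_Vehicle) with a median of 166. It was detected in 49.7% of NK arm cells (37.7% thinned) and in 0 of 317 ILC arm cells, which allows a share of cells with a UMI of up to 1.16% by the exact binomial interval and does not limit the share that expressed it. Nkg7, a granule membrane protein, was at 3134 CPM over the whole NK arm, against 1910 CPM in CD8 T cells. Gzmk, a granzyme of memory T cells, was the reverse, with 2.04 CPM in the NK arm and 255 in CD8 T cells.

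Secreted products and regulators completed the NK programme. Ccl5, a chemokine that draws T cells and monocytes, was at 15386 to 23168 CPM across libraries and had a UMI in 98.9% of NK arm cells, but it was also at 14535 CPM in CD8 T cells. Xcl1, which attracts cross-presenting dendritic cells, varied more, from 204 CPM (VCD_High_PBDE_E2_P4) to 1178 (VCD_E2_P4), and was detected in 48.8% of cells. Ifng, the macrophage-activating interferon, was at 42.0 to 152 CPM, with 102 over the whole arm against 209 in CD8 and 195 in CD4 T cells. Irf8, a transcription factor shared with dendritic cells, stood at 1553 CPM in the NK arm, 10.3 in the ILC arm and 33.6 in CD8 T cells. The T-box factors Eomes and Tbx21 were at 143 and 180 CPM, and were detected in 44.4% and 61.6% of NK arm cells. Adaptor proteins that couple activating receptors to kinases were high, with Tyrobp at 2485 CPM and Fcer1g at 2441 CPM, against 5.63 and 53.5 CPM in the ILC arm.

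Of the lectin-like receptors, most were high in the NK arm and near 0 in the ILC arm, while Klrg1, an inhibitory receptor, was at 210 CPM in the NK arm and 278 in the ILC arm, where 72.9% of cells had a UMI. Klrd1, the CD94 chain, and Klrk1, the activating receptor NKG2D, were at 729 and 639 CPM, against 0.470 and 4.70 CPM in the ILC arm. They were detected in 92.1% and 92.6% of NK arm cells. A UMI of any Klra gene, which encode the Ly49 receptors for MHC class I, was present in 88.9% of NK arm cells, with 79.5% to 100% in single libraries. Of the genes outside the rule and the lists, Klra9 (556 CPM), Klra4 (345 CPM), Klra8 (339 CPM), Klra7 (338 CPM) and Klra3 (205 CPM) were among the 10 with the largest ratio to the ILC arm. Reads of these near-identical genes could have been split between them, so that the level of each is uncertain. The other 5 were Ms4a4b at 1019 CPM, Plek at 256 CPM, Spp1 at 147 CPM, Itgax at 143 CPM and Serpinb9b at 118 CPM.

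The NK arm carried genes listed for circulating and for tissue-resident cells. Of 12 genes listed for mature circulating NK cells, 11 reached 20 CPM in the NK arm and 10 were higher there than in the ILC arm, with Itgam, an integrin chain, at 98.2 CPM. Itga1, the integrin that marks tissue-resident ILC1, had a UMI in 8.13% of NK arm cells, from 0% in VCD_Low_E2_P4 to 23.4% in VCD_Low_PBDE. Cxcr6, a residency chemokine receptor, had a UMI in 7.21% of the NK arm and in 74.1% of the ILC arm. Of the 12 genes listed for tissue-resident ILC1, 9 reached 20 CPM in the NK arm, with Rgs1 at 812 CPM, and 8 were higher in the ILC arm, with a median log2 ratio of -1.64. A UMI of Top2a, a gene of dividing cells, was found in 65 of 541 NK arm cells (5.25% of thinned cells) and 21 of 317 ILC arm cells (4.81% thinned), against 1.40% of fibroblasts (0.534% thinned). By level, Top2a was at 77.5 CPM in the NK arm and 27.7 in the ILC arm. All 16 genes of the cell cycle list were higher in the NK arm, with a median log2 ratio of 2.49.

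The ILC arm carried the cytokine genes of ILC2, whose levels are given for the 10 libraries with at least 10 ILC arm cells. Il5, which sustains eosinophils, was lowest in VCD_Vehicle (899 CPM), had a median of 1231 and was highest in Intact (2089 CPM). Il13, which acts on epithelium and macrophages, ranged from 294 CPM (VCD_Low_E2) to 1391 (VCD_E2) with a median of 938. The levels in the NK arm were 0.291 CPM for each, so that no library overlapped between the arms. CD4 T cells held intermediate levels, 424 CPM of Il5 and 140 of Il13, and CD8 T cells 33.4 and 1.81. A UMI of Il5 was present in 65.0% of ILC arm cells (58.0% thinned), against 0.185% of the NK arm and 0.973% of fibroblasts. Il13 was present in 36.0% (30.4% thinned) and both cytokines in 29.0% of cells.

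Growth factor and alarm receptor genes showed the same split in these 10 libraries. Csf2, which encodes GM-CSF, was at 1226 CPM (VCD_E2_ICI) to 3154 CPM (VCD_High_PBDE_E2_P4) in the ILC arm and at 2.33 CPM in the NK arm. Areg, the EGF receptor ligand amphiregulin, was at 586 CPM (VCD_Vehicle) to 2794 CPM (VCD_Vehicle_NormEnv), with a UMI in 83.9% of cells, and it was at 932 CPM in CD4 T cells. Il1rl1, the receptor for interleukin-33, was at 454 to 761 CPM and was detected in 89.9% of ILC arm cells (76.9% thinned) and in 0.924% of the NK arm. Rora, a nuclear receptor needed for ILC2, was at 1472 CPM, Arg1, the arginine-degrading enzyme, at 338 CPM and Calca, the neuropeptide CGRP gene, at 418 CPM, against 90.1, 15.5 and 23.3 CPM in the NK arm. Ramp1 and Ramp3, subunits of the receptors for CGRP and adrenomedullin, were at 435 and 766 CPM.

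Not every gene known for ILC2 was found. Il17rb, the receptor for interleukin-25, was at 6.57 CPM, Il4 at 3.29 CPM, Hpgds at 2.35 CPM, Nmur1 at 0.939 CPM and Ptgdr2 at 0 UMIs. The ILC3 list had 2 of 12 genes at 20 CPM or more in the ILC arm, the stem cell factor receptor Kit at 120 CPM and the receptor Nrp1 at 25.4 CPM, and none in the NK arm. The cytokine gene Il22 was at 0.470 CPM, and Il23r and Il17a had no UMI. Il17f was at 4.23 CPM. Outside the lists, the genes with the largest ratio to the NK arm were Cxcl2 (1227 CPM), Pxdc1 (514 CPM), Ccdc184 (446 CPM), Hs3st1 (387 CPM), Hlf (208 CPM), Ptgir (158 CPM), Lif (123 CPM), Bmp2 (110 CPM) and Alox5 (104 CPM), beside Ramp3. Genes of the immediate early and heat shock list were higher in the ILC arm for 17 of 20, with Junb at 4657 CPM against 1513 in the NK arm and Fosb at 1082 against 78.1. These genes code for transcription factors and chaperones that cells switch on within minutes of a stimulus.

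T cell genes outside Cd3 were low in both arms, but many cells held a UMI of them. The listed genes summed to 155 CPM in the NK arm and 170 in the ILC arm, against 2345 in CD8 and 2226 in CD4 T cells. Leaving out cells with such a UMI took Intact from 48 to 16 NK arm cells and from 48 to 18 ILC arm cells. In VCD_Low_E2 it left 43 of 72 and 12 of 28. Of the 11 listed T cell genes found in the matrices, 3 reached 20 CPM in the NK arm, Cd28, Lat and Lef1, and 2 in the ILC arm, Cd28 and Lat, which innate lymphocytes also express. Cd4, Cd8a, Cd8b1, Cd5 or Cd6 had a UMI in 4 of 541 NK arm cells and in 5 of 317 ILC arm cells. The T cell receptor constant genes were not analysed here, so that T cells without a Cd3 UMI, gamma delta T cells among them, were not told from the members by these genes. Epcam, an epithelial adhesion gene, had 68.6 CPM in the ILC arm and 5.83 CPM in the NK arm. In the 10 libraries with at least 10 ILC arm cells it ranged from 22.3 to 116 CPM in that arm. The luminal keratins Krt8 and Krt18 were at 9.39 and 18.8 CPM in the ILC arm. With the cells that held 25 or more UMIs of another cell type left out, Epcam was at 67.3 CPM and Krt8 at 0.997 CPM. The sex hormone receptors were low, with Esr1 at 4.08 CPM in the NK arm and 3.29 in the ILC arm against 56.5 in fibroblasts. Pgr was at 0.875 CPM in the NK arm and at 0 UMIs in the ILC arm. Nr3c1, the glucocorticoid receptor, was at 416 CPM in the ILC arm and 248 CPM in the NK arm.

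How many NK and ILC cells each gland yielded was compared next, as a share of the barcodes that passed. The members made up 0.823% in VCD_High_PBDE (95% exact binomial interval 0.533% to 1.21%) and 3.09% in VCD_E2_P4 (2.59% to 3.64%), with Intact at 3.01%. The NK arm ranged from 0.560% (VCD_High_PBDE) to 1.99% (VCD_E2_P4). The ILC arm ranged from 0.197% (VCD_High_PBDE) to 1.39% (Intact), and the plot of shares by library shows that the arms did not follow the same order. Intact was equally split, with 48 cells in each arm. The ILC arm made up 17.5% of the cells of both arms in VCD_High_PBDE_E2 (7.34% to 32.8%) and 62.9% in VCD_High_PBDE_E2_P4 (44.9% to 78.5%). These intervals cover counting error only, and all leukocytes moved with the libraries as well, from 9.12% of barcodes in VCD_High_PBDE to 21.1% in VCD_E2_P4. The shares also depend on the mitochondrial limit of 5%. At a limit of 10%, VCD_High_PBDE had 55 members among 3682 barcodes, against 25 among 3038, and 21 ILC arm cells in place of 6. VCD_High_PBDE_E2 then had 15 ILC arm cells in place of 7, and Intact 138 members in place of 104.

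**Figure D2:**
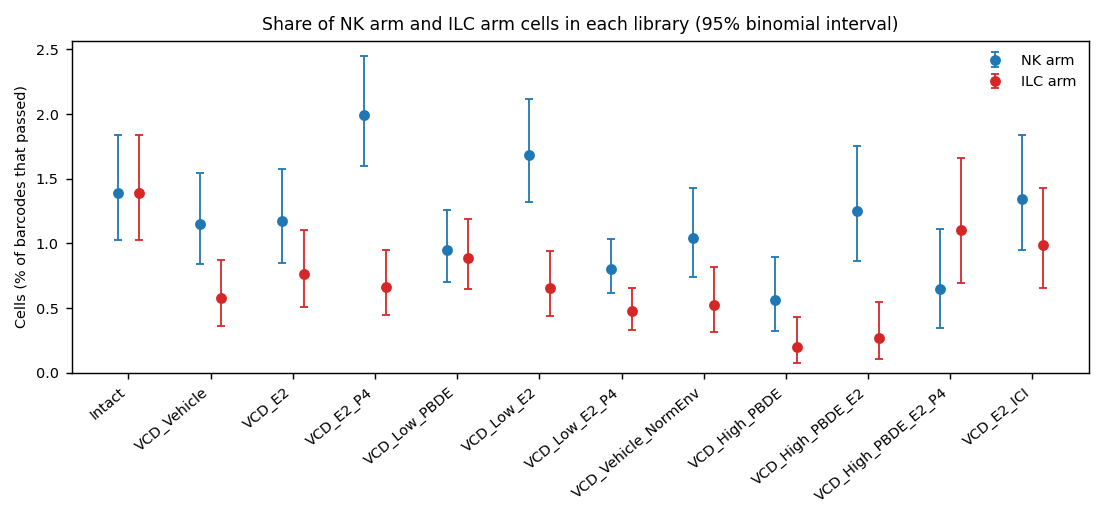
Share of passed barcodes (percent, vertical axis) in the NK arm and in the ILC arm for each of the 12 libraries (horizontal axis), where points are single libraries and bars their 95% exact binomial intervals. The NK arm was highest in VCD_E2_P4 at 1.99%, and the ILC arm was highest in Intact at 1.39%.

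Whether estradiol or estradiol with progesterone changed these shares was tested across the 9 libraries of the layout by exact two-sided permutation of labels within PBDE or hormone levels. The NK arm averaged 0.887% without hormone and 1.26% with hormone, a difference of 0.372 percentage points (SD of the PBDE levels 0.0691, n = 3). Its exact permutation p was 0.333, where the smallest possible was 0.037. With E2 and E2 + P4 averaged, it was higher in 3 of 3 PBDE levels (0.429, 0.295 and 0.392). The single libraries were uneven. VCD_E2 (1.17%) and VCD_E2_P4 (1.99%) stood against 1.15% in VCD_Vehicle. VCD_Low_E2 (1.68%) and VCD_Low_E2_P4 (0.806%) stood against 0.949% in VCD_Low_PBDE. VCD_High_PBDE_E2 (1.25%) and VCD_High_PBDE_E2_P4 (0.651%) stood against 0.560% in VCD_High_PBDE. As a share of leukocytes the NK arm was higher in 2 of 3 levels and lower without PBDE (-1.38, 0.695 and 1.47 points, mean 0.262, exact permutation p = 0.852). As a share of passed barcodes, all members differed by 0.532 points (2 of 3 levels higher, exact permutation p = 0.222) and the ILC arm by 0.100 points (exact permutation p = 0.778). Adding progesterone to E2 moved the NK arm by -0.220 points and the ILC arm by 0.186 points (exact permutation p = 0.75 and 1).

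For PBDE the members averaged 2.37% without it and 1.49% at high PBDE. The difference of -0.875 points was in the same direction in all 3 hormone levels (-1.11, -0.326 and -1.18), and its exact permutation p of 0.25 is the smallest that 8 arrangements can give, so that this layout could not pass 0.05. As a share of leukocytes the members were higher at high PBDE with E2 (-7.20, 2.13 and -0.957 points, mean -2.01, exact permutation p = 0.75). The NK arm differed by -0.617 points (exact permutation p = 0.5) and the ILC arm by -0.146 points (exact permutation p = 0.75). At low PBDE the members differed by -0.296 points (exact permutation p = 1). None of the 16 share tests passed, and each adjusted p was 1. Every high PBDE library carried the same file-name tag, which only 2 of the low PBDE and none of the other layout libraries did, so that high PBDE could be set against no PBDE within neither tag.

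Gene expression in the NK arm was then set against the conditions. The UMIs of its cells were added up within each library, and edgeR's quasi-likelihood test with Benjamini-Hochberg adjustment was run on 4498 genes with hormone and PBDE as additive terms over the 9 libraries, which assumes that they do not interact. The test called 5 genes for hormone against none (0.111% of genes tested), 4 for E2 with P4 against E2 (0.0889%), 2 for low PBDE (0.0445%) and 5 for high PBDE (0.111%). At an unadjusted p under 0.05 the counts were 203, 242, 141 and 363 of 4498 genes. A share near 0.05 of the genes would be counted so with no change at all. None of 19 NK receptor, 12 granule and killing, 14 signalling and 6 cytokine genes tested was called in any of these comparisons. In simulated data, 48.4% of 184 genes changed by 1 on the log2 scale for hormone, and 97.2% of 178 changed by 2, were recovered. The simulation gave every gene the same dispersion and no PBDE effect, so it does not show the recovery of noisier genes.

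The effector genes varied between single libraries. Gzmb was at 2064, 954 and 1560 CPM in the libraries without hormone (no, low and high PBDE), at 1473, 1917 and 2310 with E2, and at 1348, 1724 and 2247 with E2 and P4. The groups overlapped, and the log2 change for hormone was 0.26 ± 0.19 (SE, edgeR adjusted p = 1). Prf1 was at 219, 161 and 83.3 CPM without hormone, at 125, 216 and 171 with E2, and at 142, 205 and 204 with both, again overlapping (0.05 ± 0.21). Without PBDE, Gzmb and Prf1 were lower with hormone than without it, and at low and at high PBDE they were higher. The log2 changes of the additive fit average over these opposite directions, and the difference between PBDE levels was not tested. Ccl5 and Ifng gave 0.01 ± 0.13 and -0.47 ± 0.28, with adjusted p of 1. Irf8 at high PBDE missed the threshold, with a log2 change of 0.69 ± 0.17 and an edgeR adjusted p of 0.095. It was at 1667, 2384 and 2656 CPM at high PBDE against 1381, 1320 and 1214 without PBDE, with no overlap between those. The share of all tested genes without such overlap is not given here. The high PBDE sums came from 17, 33 and 13 NK arm cells, and those libraries shared a file-name tag that no library of the layout without PBDE had.

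Cd7, a surface glycoprotein of NK and T cells, was the lymphocyte gene called for hormone. It was at 614, 666 and 441 CPM in the libraries without hormone (no, low and high PBDE), at 298, 223 and 397 with E2 and at 302, 368 and 219 with E2 and P4. The groups did not overlap. Cd7 fell by 0.93 ± 0.19 on the log2 scale (edgeR adjusted p = 0.0436). Outside the layout it was at 479 CPM in Intact, 306 in VCD_Vehicle_NormEnv, which had no hormone, and 535 in VCD_E2_ICI. With the file-name tag as a covariate the change was -0.75 (adjusted p = 0.701), and the call was also lost without any one of VCD_Vehicle, VCD_E2, VCD_Low_PBDE, VCD_Low_E2 or VCD_High_PBDE_E2_P4.

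The other calls for hormone in the NK arm were Hspa1a, a heat shock chaperone, Gsn, an actin-severing protein, Rnf149, a ubiquitin ligase, and Col3a1, a collagen chain. Hspa1a was at 84.0, 245 and 119 CPM without hormone, at 31.3, 104 and 34.3 with E2 and at 19.3, 56.8 and 0 with E2 and P4, and fell by 1.80 ± 0.25 (adjusted p = 6.66e-05). In VCD_Vehicle_NormEnv, without hormone, it was at 12.9 CPM, below 5 of the 6 libraries with hormone. It was also called for low PBDE (1.61 ± 0.28, adjusted p = 0.00589), as was the chaperone Hsph1 (1.26 ± 0.26, adjusted p = 0.0460). Both low PBDE calls, and the hormone calls of Hspa1a, Gsn and Col3a1, were lost without VCD_Low_PBDE, and without that library no gene was called for either comparison. The low PBDE calls were lost without VCD_Vehicle as well, and that of Hsph1 also without VCD_E2, VCD_Low_E2_P4 or VCD_High_PBDE_E2_P4. No gene was called for low PBDE with the file-name tag as a covariate, by DESeq2's Wald test or at a mitochondrial limit of 10%. Gsn fell by 1.08 ± 0.16 for hormone (adjusted p = 0.000156). It was at 23710 CPM in fibroblasts against 498 in the NK arm, and 3 of the 5 genes called for hormone, 4 of 4 for E2 with P4, 1 of 2 for low PBDE and 2 of 5 for high PBDE were higher in fibroblasts, against 26.7% of all genes tested. Col3a1, Col1a1 and Col1a2, matrix genes of fibroblasts, were 3 of the 4 genes called for E2 with P4 against E2, at log2 changes of 1.07, 1.53 and 1.33 (adjusted p = 0.0178, 0.0178 and 0.0233). The last call was the kinase gene Rps6ka3, which fell by 2.02 ± 0.42 (adjusted p = 0.0277), a call lost without any one of VCD_E2, VCD_E2_P4, VCD_Low_E2 or VCD_Low_E2_P4. Col3a1 was at 10916 CPM in fibroblasts against 113 to 576 in the NK arm of the libraries in the layout, and without the NK arm cells that held 25 or more UMIs of another cell type it was still called for hormone, at 1.07 ± 0.20 (adjusted p = 0.00332). None of the 3 collagen genes was then called for E2 with P4, with Col3a1 at 0.77 ± 0.20, Col1a1 at 0.84 ± 0.29 and Col1a2 at 0.85 ± 0.28 (adjusted p = 0.207, 0.858 and 0.792). With the file-name tag as a covariate the hormone change of Col3a1 was 1.14 ± 0.28 and was not called (adjusted p = 0.139).

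At high PBDE, 4 genes fell in the NK arm and 1 rose. AY036118 was at 35.7, 19.6 and 14.6 CPM in the high PBDE libraries, against 136 to 411 in the other libraries of the layout, and fell by 3.95 ± 0.38 (adjusted p = 1.14e-08). Lars2, a mitochondrial leucyl-tRNA synthetase, fell by 2.85 ± 0.55 (adjusted p = 0.00925), and Gsn by 1.25 ± 0.22 (adjusted p = 0.00231). The Lars2 call was lost without any one of the high PBDE libraries, and that of Gsn without VCD_High_PBDE_E2_P4. The 6 fibroblast list genes tested had a median log2 change of -0.74 at high PBDE in the NK arm, all below 0 and none called, and their part in the Gsn result was not tested. VCD_E2_ICI, which had no PBDE but the same file-name tag, was also low, at 34.8 CPM of AY036118 and 13.1 of Lars2, against 9.79 to 14.6 CPM of Lars2 at high PBDE. VCD_Vehicle_NormEnv, with that tag too, had 64.5 CPM of AY036118 and 25.8 of Lars2, below each library of the layout without high PBDE. With the tag as a covariate AY036118 was still called (-3.46, adjusted p = 0.000947). Only the low PBDE level held both tags, so that fit takes the tag difference from the low PBDE libraries alone. It assumes the same difference at high PBDE and cannot by itself tell high PBDE from the tag. Tnfrsf9, the costimulatory receptor 4-1BB, was at 524, 250 and 686 CPM at high PBDE, against 150, 212 and 257 without PBDE, which overlap, and 344 in VCD_Vehicle_NormEnv. Tnfrsf9 rose by 1.08 ± 0.23 (adjusted p = 0.0400), and that call was lost with the tag and without any one of 5 libraries, VCD_Vehicle, VCD_E2_P4, VCD_Low_PBDE, VCD_High_PBDE and VCD_High_PBDE_E2_P4. With cells that had a T cell gene UMI left out, VCD_High_PBDE and VCD_High_PBDE_E2_P4 fell under 10 cells and out of the fit as well, and the change in the 7 libraries left was -0.52 ± 0.46 (adjusted p = 0.870).

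**Figure D3:**
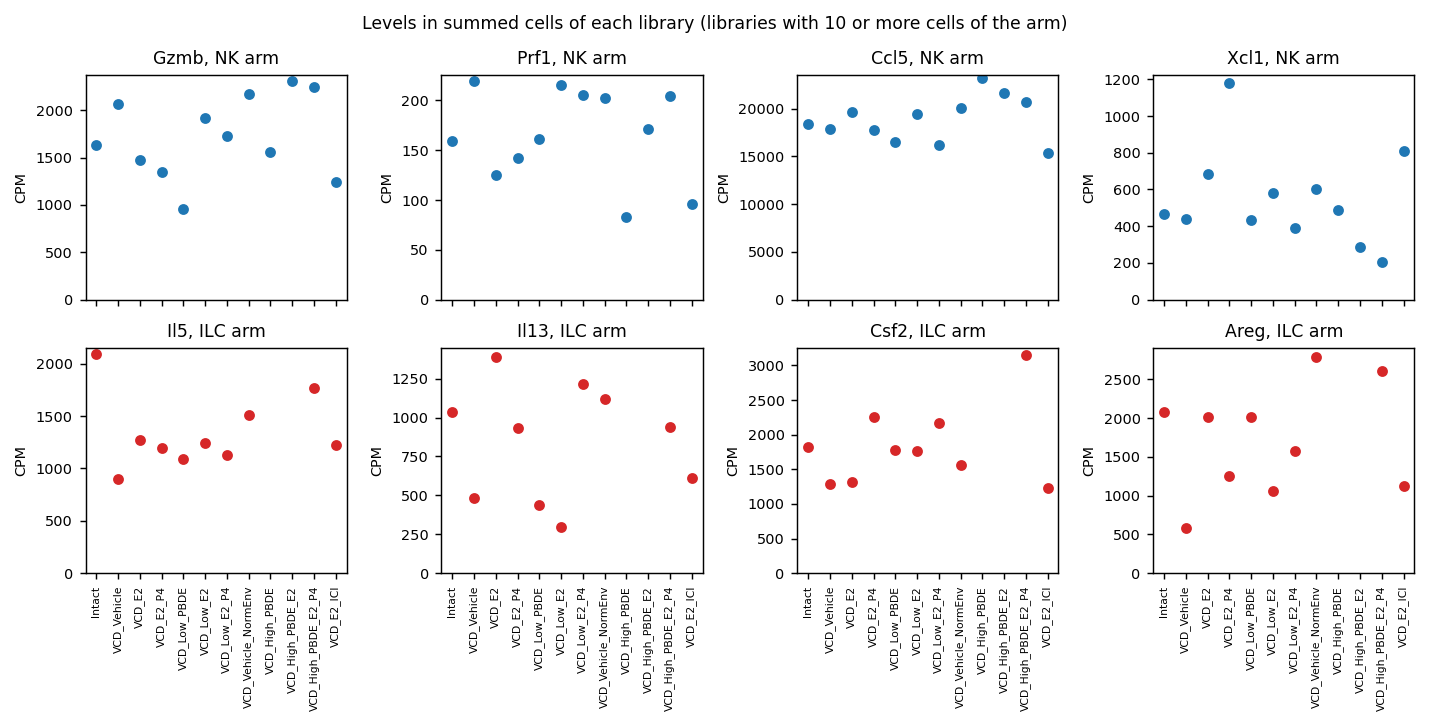
Level (CPM of the summed cells, vertical axes) of Gzmb, Prf1, Ccl5 and Xcl1 in the NK arm and of Il5, Il13, Csf2 and Areg in the ILC arm for each library with at least 10 cells (horizontal axes); each point is 1 library. Libraries with and without hormone overlapped for Gzmb, Prf1 and Il13, and Xcl1 was highest in VCD_E2_P4 at 1178 CPM.

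In the ILC arm the sums of VCD_High_PBDE (6 cells) and VCD_High_PBDE_E2 (7 cells) were left out, so that 7 libraries remained and high PBDE rested on VCD_High_PBDE_E2_P4 alone. Its cytokine genes again overlapped between groups or missed the test. Il5 was at 899 and 1093 CPM without hormone (no and low PBDE), at 1274 and 1242 with E2, and at 1197, 1132 and 1767 with E2 and P4 (no, low and high PBDE). All 5 libraries with hormone were above the other 2, with a log2 change of 0.28 ± 0.16 (edgeR adjusted p = 0.78). In VCD_Vehicle_NormEnv, without hormone, Il5 was at 1513 CPM. Il13 was at 486 and 436 CPM without hormone, at 1391 and 294 with E2, and at 935, 1217 and 940 with both, with a log2 change of 0.97 ± 0.79 (adjusted p = 0.97).

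Csf2 was at 1285 and 1785 CPM without hormone and at 1319 to 3154 CPM with hormone (0.28 ± 0.15, adjusted p = 0.75). Areg was at 586 and 2012 CPM without hormone and at 1056 to 2608 with it (0.25 ± 0.81, adjusted p = 1). Of 22 ILC2 genes tested, the counts called were 0 for hormone, 1 for E2 with P4, 0 for low PBDE and 2 for high PBDE, against 0.429%, 2.02%, 0.184% and 2.11% of all 3263 genes tested. Furin, a protease that processes precursors, fell by 0.63 ± 0.16 for E2 with P4 against E2 (edgeR adjusted p = 0.0250). That call was lost without VCD_E2, which left 1 library with E2, and DESeq2's Wald test called no gene lower. At high PBDE, where VCD_High_PBDE_E2_P4 was the only library, Furin was higher by 0.81 ± 0.20. With the file-name tag as a covariate, at most 1 of Furin, Ccr4, Tgfb1 and Gm12840 kept a call as higher at high PBDE. The Furin levels were 2643 and 2003 CPM with E2 and 1538, 1564 and 2972 with both. Ccr4, a skin and lung homing receptor, was at 167 CPM in VCD_High_PBDE_E2_P4 and at 6.66 to 54.0 CPM in the other 6 libraries (adjusted p = 0.00241). With the cells named below left out, the Furin changes were -0.47 ± 0.17 and 0.63 ± 0.21 and were not called (adjusted p = 0.388 and 0.245), and Ccr4 was still called.

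Across all 3263 genes tested in the ILC arm, 14 were called for hormone (0.429% of genes tested), 66 for E2 with P4 (2.02%), 6 for low PBDE (0.184%) and 69 for high PBDE (2.11%). At an unadjusted p under 0.05 the counts were 222, 428 and 187 of 3263 genes for the first 3 comparisons. Here too a share near 0.05 would be counted with no change at all. Of the genes called, 10 of 14 for hormone, 61 of 66 for E2 with P4, 2 of 6 for low PBDE and 49 of 69 for high PBDE were higher in fibroblasts than in the ILC arm, against 39.1% of all genes tested. All 6 tested genes of the fibroblast list were called for E2 with P4, with a median log2 change of 3.27 against -0.01 over all genes.

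Single cells held much of this RNA. Of the 317 cells, 12 had 25 or more UMIs of the fibroblast, epithelial, macrophage or erythrocyte lists, 8 of them of the fibroblast list, and 6 of those came from VCD_Low_E2_P4 and 1 from VCD_E2_P4. The last held 739 fibroblast UMIs. All 92 UMIs of the basal keratin Krt14 came from 1 cell of VCD_Low_PBDE, and 116 of 147 UMIs of the globin Hbb-bt came from 1 cell. Col3a1 was at 1310 CPM in VCD_E2_P4 and 2016 in VCD_Low_E2_P4, and at 407 and 356 CPM without the 12 cells, still above the 123 to 197 CPM of the other libraries of the fit. The NK arm held 9 such cells of 541, 5 of them with macrophage genes and 3 with fibroblast genes.

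Without those cells, the calls in the ILC arm numbered 7 for hormone (0.227% of 3086 genes), 3 for E2 with P4 (0.0972%), 1 for low PBDE (0.0324%) and 9 for high PBDE (0.292%), as the bars of called genes show. The genes in common with the calls of all cells were 3, 2, 0 and 8. In the NK arm the corresponding counts were 5, 2, 4 and 5, of which 4, 1, 2 and 5 were in common.

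**Figure D4:**
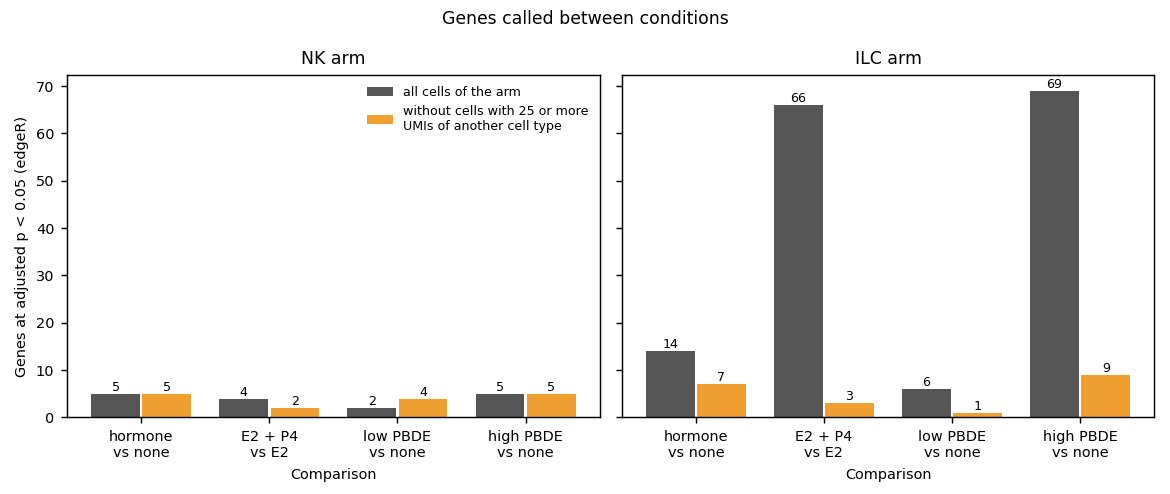
Number of genes called by edgeR at an adjusted p under 0.05 (vertical axis) for the 4 comparisons (horizontal axis) in the NK arm and the ILC arm. Bars give all cells and the cells left after removing those with 25 or more UMIs of another cell type; the ILC arm went from 66 to 3 genes for E2 with P4 and from 69 to 9 for high PBDE, while the NK arm stayed at 5 for hormone and for high PBDE.

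The genes called in the ILC arm without those cells included immediate early and cell cycle genes. Jun and Fos, early response transcription factors, fell with hormone by 1.13 ± 0.19 and 0.89 ± 0.19 on the log2 scale (edgeR adjusted p = 0.000361 and 0.0296). Over all cells, 1 of the 18 immediate early and heat shock genes tested was called lower for hormone. With all cells, no gene was called lower for hormone at a mitochondrial limit of 10% or by DESeq2's Wald test. With the cells of other types left out, Jun was at 646 and 661 CPM without hormone and at 181 to 498 CPM in the 5 libraries with hormone, with no overlap. It fell again with P4 added to E2 (by 1.10 ± 0.25, edgeR adjusted p = 0.0467), a call that the fit of all cells did not give. Fos was at 2084 CPM in VCD_Vehicle and 645 in VCD_Low_PBDE, both without hormone, and at 281 to 903 with it, which overlap. It was also called lower at low PBDE, and its change was negative at high PBDE, which rested on 1 library. Over all cells, no listed immediate early gene was called lower at low PBDE. VCD_Vehicle, where Fos was highest, is a reference library in each of these comparisons. Stmn1, a microtubule regulator of dividing cells, was at 357 and 176 CPM in VCD_E2_P4 and VCD_Low_E2_P4 (1 cell of VCD_E2_P4 held 63 of the 125 Stmn1 UMIs of the ILC arm), at 5.79 in VCD_E2 and at 0 in VCD_Low_E2, and was called for E2 with P4 (adjusted p = 1.16e-07). In VCD_High_PBDE_E2_P4, which also had P4, Stmn1 was at 7.58 CPM. Over all cells the Stmn1 call was lost without VCD_E2, and at a mitochondrial limit of 10%, which also brought VCD_High_PBDE and VCD_High_PBDE_E2 into the fit, the change was -0.68 ± 0.52 (adjusted p = 0.785). Top2a, a topoisomerase of dividing cells, was called for hormone (adjusted p = 0.00536), with 0 UMIs in both libraries without hormone and 22.7 to 131 CPM in those with it, where 1 cell of VCD_E2_P4 held 20 of the 59 Top2a UMIs of the ILC arm.

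Further calls without those cells included the chemokine Ccl1, the interferon-induced Ifi27l2a and the growth regulator Tgfb1. Ccl1, a ligand of Ccr8, was at 107 and 136 CPM without hormone and at 346 to 1830 CPM with it, while VCD_Vehicle_NormEnv, without hormone, had 823 CPM (log2 change 2.51 ± 0.37, edgeR adjusted p = 0.0422). Ifi27l2a was at 33.3 and 6.32 CPM without hormone and at 30.3 to 293 with it, overlapping (3.13 ± 0.55, adjusted p = 0.00641). At high PBDE, Tgfb1 was at 1213 CPM in VCD_High_PBDE_E2_P4 and at 483 to 672 in the other libraries of the fit (log2 change 1.14 ± 0.27). Gm12840 was at 1031 CPM in VCD_High_PBDE_E2_P4, at 117 to 234 in the others, and at 777 in VCD_E2_ICI, which had no PBDE. With 1 library at high PBDE, these calls assume that it varies like the others. That library also carried the file-name tag shared by all high PBDE libraries. With the tag as a covariate over all cells, at most 1 of Tgfb1, Gm12840, Furin and Ccr4 kept a call as higher.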

How the data were processed

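The authors deposited raw counts for each library, as UMI counts of 27998 genes by cell barcode, made per the labels from 10x Genomics Chromium 3′ libraries with Cell Ranger 3.1.0 on mm10 (the submitters' processing notes). The filters before deposit are not given in the sources used here. The labels name a HiSeq and the methods another instrument. Barcodes with at least 500 genes, 1000 UMIs and at most 5% mitochondrial UMIs were kept, and the rule on transcripts picked the members. No doublets were removed in the main analysis. T cells had at least 2 Cd3 UMIs and Cd8a or Cd8b1, or Cd4, and fibroblasts had Pdgfra and no Ptprc. The members and gene lists were chosen with earlier results of these data known. Named genes were the genes of the rule, list members with at least 20 CPM or defining markers near 0, up to 10 called genes per comparison by size of change (where fewer than 5 passed, the 5 lowest p), and the 10 genes per arm with the largest ratio. Calls in the ILC arm without cells of other types were named after their values were seen.

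Counts were summed per library and arm, sums of under 10 cells were left out, and edgeR 4.0.16 (limma 3.58.1, R 4.3.3) was run with TMM, filterByExpr and a robust quasi-likelihood fit of hormone plus PBDE. Each group is 1 library, so that p-values measure the spread between libraries once these terms are taken out, and this may be technical. Shares were tested by exact permutation (Python 3.11.15, scipy 1.17.1) and have 95% Clopper-Pearson intervals, and a floor of 0 counts was read from the same interval. Intervals cover counting error only, and free RNA can give UMIs in cells that do not express a gene. The fit was tested on simulated data with 200 changed genes drawn per run and the same dispersion for all genes. Alternatives were DESeq2 1.42.0 and its size factors, no filter, the file-name tag as covariate, other limits, thinning to 3000 UMIs, another denominator, doublet removal by a simulated-doublet neighbour score (scikit-learn 1.9.0), and leaving out each library. Those without cells carrying RNA of another type, without Cd4, Cd8a, Cd8b1, Cd5, Cd6, Themis or Foxp3, and without the cells of neither arm were chosen after seeing the data. Some genes, 1 of them among the calls for high PBDE in the NK arm, are not reported here.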

Additional observations from a re-analysis of the deposited data

Results flagged for a closer look

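The effect of adding progesterone to E2 on the share of cells ran in opposite directions at different PBDE levels. For all NK and ILC cells it was 1.02 percentage points without PBDE (VCD_E2_P4 against VCD_E2) and -0.989 points at low PBDE (VCD_Low_E2_P4 against VCD_Low_E2), and for the NK arm it was 0.818 and -0.877 points. The ILC arm share at high against low PBDE was -0.691 points without hormone and 0.627 points with E2 and P4. Each value compares single libraries, the differences between them were not tested, and low and high PBDE libraries without hormone differ in file-name tag.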

How the results depend on the processing

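Counts of called genes moved with the settings. In the order hormone, E2 with P4, low PBDE and high PBDE, the NK arm had 5, 4, 2 and 5 calls and the ILC arm 14, 66, 6 and 69. DESeq2's Wald test gave 3, 0, 0 and 11 in the NK arm and 3, 13, 0 and 14 in the ILC arm. Without a filter on low counts the NK arm had 11, 38, 35 and 37, and the ILC arm 32, 132 and 18 for the first 3. With the file-name tag as a covariate the NK arm had 3, 22, 0 and 10, and the ILC arm 6, 11 and 3 for hormone, low and high PBDE. At a mitochondrial limit of 10%, the NK arm had 7, 0 and 8 for the last 3, and the ILC arm 1, 26, 0 and 15, in a fit of 9 libraries in place of 7, since VCD_High_PBDE and VCD_High_PBDE_E2 then had over 10 cells. At 3 or more UMIs of the 6 genes, the NK arm had 2 calls for E2 with P4, and the ILC arm 16 for E2 with P4 and 23 for high PBDE. Without cells with a UMI of the T cell list, which also removed cells with Cd28, Lat or Lef1, the NK arm had 2, 0 and 0 for hormone, low and high PBDE in the 7 libraries that kept 10 cells (VCD_High_PBDE and VCD_High_PBDE_E2_P4 did not), and the ILC arm 0, 2 and 3 for the first 3 in 6 libraries, with none at high PBDE left to test. Without cells carrying RNA of another type, the NK arm had 2 and 4 for E2 with P4 and low PBDE, and the ILC arm 7, 3, 1 and 9. DESeq2's size factors and the narrower T cell list left each count within 1.5 times. Doublet removal took out 2 members and changed no sum that was fitted, so that it tested nothing.

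Leaving out each library in turn gave 0 to 11, 1 to 15, 0 to 6 and 2 to 36 calls in the NK arm and 3 to 28, 5 to 79, 0 to 14 and 12 to 90 in the ILC arm. The NK arm had 0 for hormone and for low PBDE without VCD_Low_PBDE and 36 for high PBDE without VCD_Vehicle. The ILC arm had 5 for E2 with P4 and 12 for high PBDE without VCD_E2, and for hormone 3 without VCD_Low_PBDE and 28 without VCD_E2_P4. The causes were not tested.

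The directions of 3 named genes turned. Tnfrsf9 in the NK arm at high PBDE was at -0.52 on the log2 scale without cells with a T cell gene UMI and the 2 high PBDE libraries lost with them (adjusted p = 0.870), Apoe in the ILC arm for hormone at 0.056 without VCD_Low_PBDE (-3.36 to 0.056 over the libraries left out), and Stmn1 in the ILC arm for E2 with P4 at -0.68 at the 10% mitochondrial limit with its 2 further libraries (adjusted p = 0.785). Of the other values for named genes, 596 kept their direction and call, 249 lost the call and 17 gained one. Of the 596, 56 came from doublet removal, which changed no fitted sum and so could not differ, and 56 from the change of size factors. Of the 16 share tests, 12 could not reach an exact permutation p below 0.25, so their p-values say nothing of stability. Leaving out 1 library in a share test removed its whole PBDE level from a hormone contrast, or its whole hormone level from a PBDE contrast. The means were then 0.344 to 0.410 points for the NK arm with hormone and -1.15 to -0.720 points for the members at high PBDE. Others changed sign, such as P4 added to E2 in the NK arm (-0.739 to 0.108) and low PBDE in the members (-0.682 to 0.320). These ranges do not show the weight of a single library. No paired analysis was possible because each group is 1 library and the replicate numbers pair nothing. The 7 libraries fitted in the ILC arm held 22 to 44 cells each, and in simulated data for hormone there 28.7% of 178 genes changed by 1 on the log2 scale and 89.1% of 184 changed by 2 were recovered. Here too every simulated gene had the same dispersion, so recovery of noisier genes is not shown.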

Other observations

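Values outside the 3 by 3 layout are given here without a test. In Intact, which had no VCD, the members were 3.01% of passed barcodes and 27.3% of leukocytes, a larger share of leukocytes than in any of the 11 VCD libraries. In VCD_E2_ICI the ILC arm had a UMI of Il5 in 39.3% of cells and of Csf2 in 28.6%, the lowest of the 10 libraries with at least 10 ILC arm cells, while its Il5 level of 1220 CPM lay near the median of 1231 CPM. In VCD_Vehicle_NormEnv Il5 was detected in 78.9% of 19 ILC arm cells.

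The 94 cells of neither arm comprised 40 with Gzma or Klre1 but neither Ncr1 nor Klrb1c, 40 with Gata3 as the only one of Gata3, Il7r, Gzma and Klre1, and 14 with Il7r as the only one. Of these, 17 had 25 or more UMIs of another cell type, and 11 of the 17 came from VCD_Low_E2_P4.

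Of the ILC arm, 27.1% had a UMI of Epcam (13.5% thinned to 3000 UMIs), against 3.33% of the NK arm, 13.9% of CD4 T cells and 1.53% of thinned fibroblasts.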
